A study of Homo sapiens with 6 samples.

Results

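The protein kinase C family was examined as the 8 genes *PRKCA*, *PRKCB*, *PRKCD*, *PRKCE*, *PRKCH*, *PRKCQ*, *PRKCI* and *PRKCZ*, found by symbol among the 60655 genes of a read count table. The family was chosen from the difference between IGF2BP3 immunoprecipitation (IP) and IgG IP in these same libraries, so the members' values, intervals and calls for that difference are given below as a description and are not evidence for it. RNA immunoprecipitation followed by sequencing (RIP-seq) sequences the RNA held on beads by an antibody after cell lysis. It was run in untreated WaGa cells labelled wild type, a single Merkel cell carcinoma (MCC) line, with an antibody to the RNA-binding protein IGF2BP3 in 3 libraries and with IgG as the negative control in 3 libraries. The comparison asks which RNAs are recovered more with IGF2BP3 than with IgG, and libraries of the input RNA were not analysed here. The replicates are described as independent, and no label says whether each came from a separate culture.

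Protein kinase C enzymes are serine and threonine kinases that relay lipid signals made at the cell membrane. The conventional members, of which *PRKCA* and *PRKCB* encode the alpha and beta forms, are switched on by calcium together with diacylglycerol, which phospholipase C releases from a membrane phosphoinositide. The calcium-independent members, delta (*PRKCD*), epsilon (*PRKCE*), eta (*PRKCH*) and theta (*PRKCQ*), respond to diacylglycerol alone. The atypical members, iota (*PRKCI*) and zeta (*PRKCZ*), respond to neither and work with the PAR polarity proteins. IGF2BP proteins bind mRNA through KH domains and have been linked to GGAC elements that carry N6-methyladenosine and to CA-rich elements.

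Since IGF2BP3 is an RNA-binding protein, short stretches of the members' coding exons are shown with every GGAC, ACAC and CATT in capitals. For each of the 5 members with enough counts to test, the 30 bases are a stretch of the canonical transcript's coding sequence, within 1 exon, that holds the most such matches. All 5 are on the + strand of GRCh38 and are written as the mRNA runs, 5′ to 3′.
PRKCA, exon 17 of 17, chr17:66803904-66803933: tcttcACACgaGGACagcccgtcttaACAC
PRKCB, exon 4 of 17, chr16:24032141-24032170: ccgcagcaaACACaagtttaagatccACAC
PRKCD, exon 17 of 19, chr3:53189064-53189093: cagggcctgaagtACACATTctctgtGGAC
PRKCI, exon 1 of 18, chr3:170222678-170222707: ccagagGGACagcagcaccatgtcccACAC
PRKCZ, exon 14 of 18, chr1:2173974-2174003: accgacaacccGGACatgaACACagaGGAC

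In *PRKCB* and *PRKCI* the densest stretch held 2 matches, and in *PRKCA*, *PRKCD* and *PRKCZ* it held 3. Letters this short are common. Among all 30-base windows of the 62700 canonical transcripts of the annotation, 4.47% held at least 2 matches and 0.639% held at least 3. These are shares of single windows over whole transcripts, whereas each stretch shown was picked as the densest of a coding sequence. They therefore do not say how rare such a densest stretch is, and that share was not computed. A match is a description of letters in the strand that is transcribed, not a binding site. In *PRKCD* the ACAC and CATT matches overlap, so that stretch reads ACACATT.

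Across whole canonical transcripts, the members differed in which of the 3 elements was dense. *PRKCB* held 6.12 ACAC per kb, at the 94.6th percentile of tested RNAs, and *PRKCA* held 4.91 per kb, at the 87.6th. The median of tested RNAs was 3.07 per kb. GGAC was dense instead in *PRKCZ*, at 9.22 per kb, and in *PRKCD*, at 8.82 per kb, the 97.5th and 96.9th percentiles against a median of 3.51. *PRKCI* held 4.09 ACAC per kb, at the 76.6th percentile, and 2.86 GGAC per kb, at the 37.0th. Its CATT density of 6.96 per kb lay at the 89.7th percentile, with a median of 4.21. Of all tested RNAs with a transcript in the annotation, 98.0% held at least 1 GGAC, 96.7% at least 1 ACAC and 97.0% at least 1 CATT.

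Library totals ran from 9758759 to 14886414 counts per library. Counts of the 2 replicate 1 libraries stood apart from the rest, with a chi-square per degree of freedom of 16.3 to 19.7 against replicates 2 and 3 of the same group, where those 2 gave 2.13 and 3.06 between themselves. The label of the cells held against its markers. All 10 MCC markers, among them *KRT20* and *ATOH1*, had at least 10 counts in every library, and summed to 2199 to 3318 TPM, a length-scaled measure of transcript abundance, in the IgG IP and 2575 to 3447 TPM in the IGF2BP3 IP. The 4 lymphocyte markers summed to 0 TPM in both groups, a cell type in which *PRKCB*, *PRKCH* and *PRKCQ* are well known. Of 4 fibroblast markers, *DCN* had 29.2 to 54.1 TPM and the others at most 2 counts, and the list summed to 35.8 to 54.1 TPM in the IgG IP and 29.2 to 47.3 TPM in the IGF2BP3 IP. *KRT14*, a keratinocyte marker, was at 0, and the sum with *KRT5* was 0.64 to 0.73 TPM in the IgG IP and 0.54 to 1.33 TPM in the IGF2BP3 IP.

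*PRKCI* made up most of the family's RNA recovered in either IP. Levels of different genes were compared per length, in TPM, and in the IgG IP *PRKCI* (ENSG00000163558.13) stood at 26.3, 41.6 and 39.5 TPM in replicates 1 to 3. *PRKCA* (ENSG00000154229.12) stood at 2.42, 5.27 and 5.59 TPM, and *PRKCB* (ENSG00000166501.14) at 1.79, 2.87 and 2.06 TPM. The lowest *PRKCI* value was thus above every value of any other member. *PRKCZ* (ENSG00000067606.17) stood at 0.89, 2.48 and 1.14 TPM and *PRKCD* (ENSG00000163932.15) at 0.26, 1.27 and 1.16 TPM. In the order *PRKCI*, *PRKCA*, *PRKCB*, *PRKCZ*, *PRKCD*, the step from *PRKCI* to *PRKCA* was the only one where the 3 values of neighbouring genes did not overlap.

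As a share of the family's summed TPM, *PRKCI* held 79.0% ± 3.59 (SD, n = 3) in the IgG IP and 72.3% ± 1.38 in the IGF2BP3 IP. *PRKCA* held 9.42% ± 1.61 and 13.6% ± 1.06, and *PRKCB* held 5.00% ± 0.897 and 6.59% ± 0.720. *PRKCZ* and *PRKCD* held 3.21% and 1.81% with IgG, and 4.31% and 2.89% with IGF2BP3. These are shares of RNA and not of protein or kinase activity. They are also shares of RNA recovered on beads, and without input RNA the shares in the cells are not known. Fewer cells with an RNA, less of that RNA per cell and less recovery of it on the beads cannot be told apart.

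**Figure D1:**
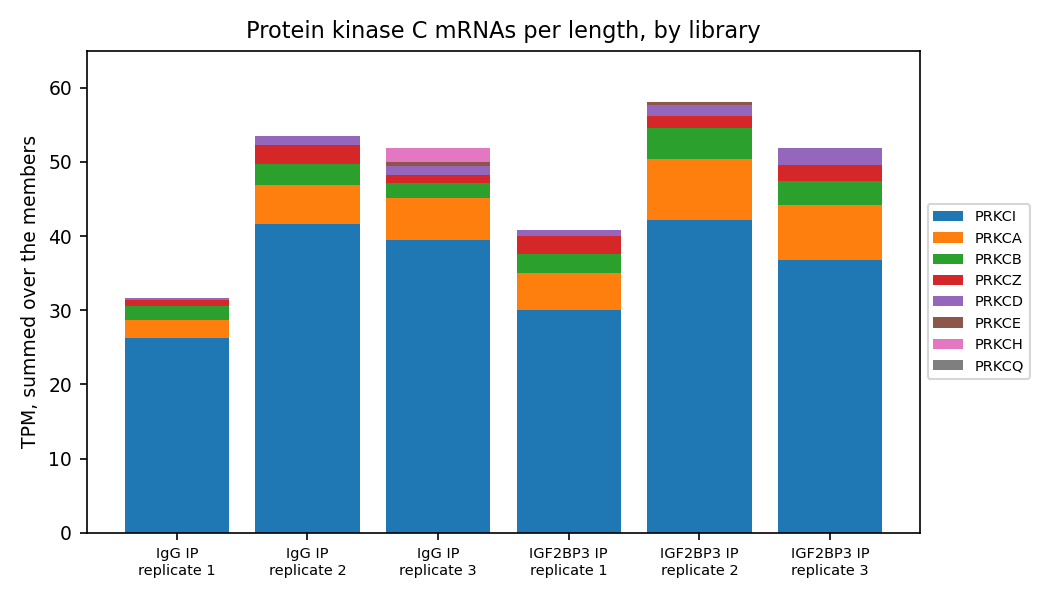
TPM of the 8 family members, stacked for each of the 6 libraries, with TPM on the y axis and 1 colour per gene. *PRKCI* fills most of every bar, the IgG IP replicate 1 bar is the shortest at 31.7 TPM in all, and the *PRKCH* band in IgG IP replicate 3 is 1.83 TPM resting on 2 counts.

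The remaining 3 members, all of the calcium-independent class, were barely detected. *PRKCQ* (ENSG00000065675.15, chromosome 10) had 0 counts in all 6 libraries, which at 3 counts per library allows up to 0.201 to 0.325 CPM (library-scaled counts) depending on the library, covering counting error only. *PRKCE* (ENSG00000171132.14, chromosome 2) had 0, 3 and 5 IgG IP counts and 0, 3 and 2 IGF2BP3 IP counts. *PRKCH* (ENSG00000027075.15, chromosome 14) had 0, 1 and 2 IgG IP counts and 1, 0 and 0 IGF2BP3 IP counts. None of these 3 passed the filter on low counts, and a difference between the groups was not detectable at this depth. Of the calcium-independent class, *PRKCD* was thus the only member that could be followed.

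The other 5 members passed the filter, along with 14507 genes in all, and were fitted with the quasi-likelihood test of edgeR over the whole table. Calls needed a 1.5-fold difference or more, with a p under 0.05 after Benjamini-Hochberg adjustment. No member was called in either direction, against 1.16% of all tested RNAs called higher in the IGF2BP3 IP and 0% called lower. At an unadjusted p under 0.05, which 12.8% of all tested RNAs reached, there were 2 of the 5, and since the choice of the family used this difference nothing is read from that count. DESeq2 called *PRKCB* higher and none of the other members, where it called 2.31% of the RNAs for which it gave an adjusted p.

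*PRKCB* had the largest fitted difference of the 5 on the counts. The gene lies on chromosome 16 from 23835983 to 24220611 (GRCh38, + strand), and its canonical transcript has 17 exons and 8010 bases. It gave 44, 100 and 74 counts in IgG IP replicates 1 to 3, and 109, 171 and 131 counts with IGF2BP3. After scaling for library size, these were 4.77, 6.70 and 5.97 CPM with IgG, and 9.15, 12.9 and 10.6 CPM with IGF2BP3. Every IGF2BP3 IP library was above every IgG IP library, as was so for 12.0% of all tested RNAs. The means were 5.81 ± 0.975 and 10.9 ± 1.90 CPM (SD, n = 3), a log2 fold change of 0.89 with a standard error (SE) of 0.19. As a fold this was 1.86, with a 95% interval of 1.37 to 2.51. Between libraries of the same replicate number, the log2 difference in CPM was 0.93, 0.94 and 0.83, so replicate 1, which stands apart in its counts, gave about the same difference as the others.

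*PRKCB* was past the 1.5-fold minimum in every fit on the counts, and these fits differed in whether its adjusted p was under 0.05. With the replicate number as a block it was called higher (log2 fold change 0.91), in a fit that called 3.56% of tested RNAs higher and 0.103% lower. It was called with DESeq2 (0.89) and when IGF2BP3 IP replicate 1 was left out (1.00), and leaving out any other library gave 0.75 to 1.01 with no call. On the TPM scale the log2 fold change was smaller, 0.42 with 1 TPM added and 0.55 with 0.1 TPM added, where the median of all tested RNAs was itself shifted by 0.11 and 0.13. Relative to that shift, *PRKCB* was at 0.31 and 0.42.

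**Figure D2:**
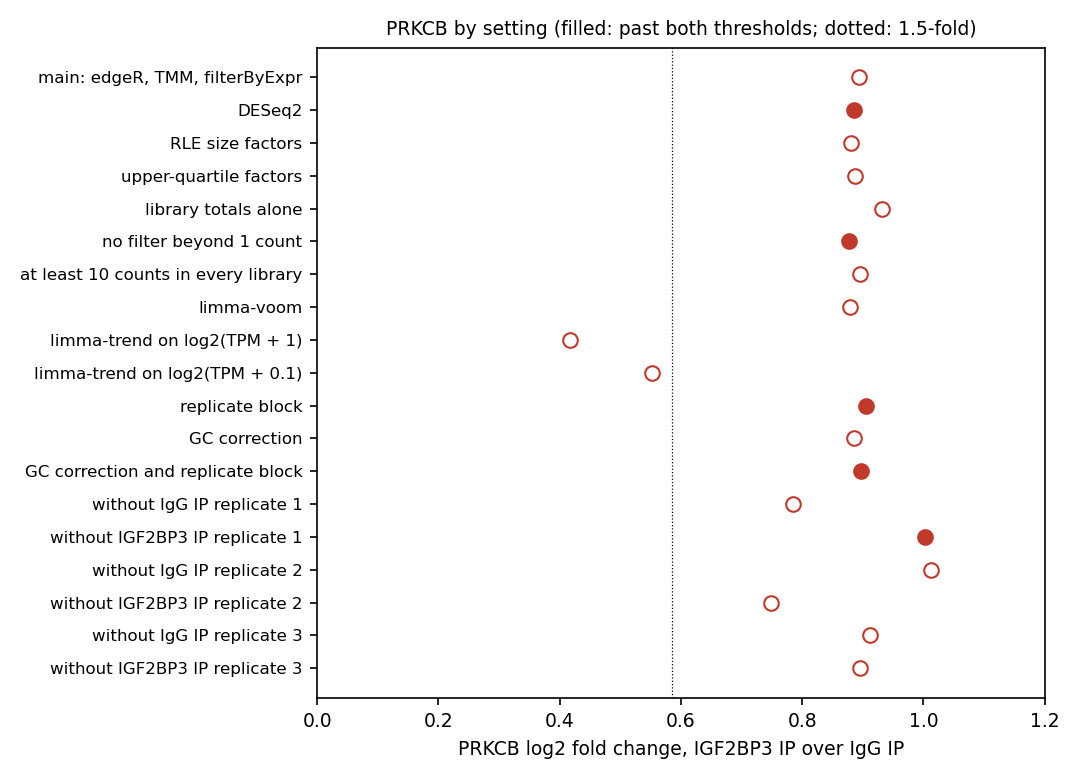
Log2 fold change of *PRKCB*, IGF2BP3 IP over IgG IP, on the x axis under each setting on the y axis. Filled points passed both thresholds and open points did not; all settings on the counts lie between 0.75 and 1.01, right of the dotted 1.5-fold line, and the pair of points on the TPM scale lie left of it at 0.42 and 0.55.

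The counts were also set against FPKM, another length-scaled measure from RSEM, as counts per unit of FPKM divided by the library's median gene. This ratio can move with the transcript length that RSEM used and with reads that RSEM and the unnamed counting program assigned differently, and these cannot be told apart here. For *PRKCB* this was 1.00, 1.24 and 1.52 with IgG, and 1.58, 1.71 and 1.89 with IGF2BP3, so that every IGF2BP3 IP value was above every IgG IP value. That order held for 4.53% of the tested RNAs that could be computed. In TPM the groups overlapped, since *PRKCB* in the IGF2BP3 IP stood at 2.57, 4.31 and 3.15 TPM and IgG IP replicate 2 was at 2.87 TPM. For *PRKCA* the same quantity was 4.09, 3.95 and 3.94 with IgG, and 3.97, 3.78 and 3.70 with IGF2BP3, with overlap. For *PRKCZ*, with few counts, it went from 0.581 to 1.10 over the 6 libraries. By definition, a ratio of counts to FPKM that is higher with IGF2BP3 makes the difference per length smaller than that in counts. Why the ratio was higher for *PRKCB* was not tested.

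*PRKCA*, the other conventional member, differed in the same direction, and by less on the counts. It lies on chromosome 17 from 66302613 to 66810743 (+ strand), with a canonical transcript of 17 exons and 8964 bases. Its IgG IP counts were 243, 585 and 521 and its IGF2BP3 IP counts 537, 719 and 606, or 26.3, 39.2 and 42.0 CPM against 45.1, 54.3 and 49.3 CPM. Every IGF2BP3 IP library was above every IgG IP library in CPM, but the gap between the highest IgG IP and the lowest IGF2BP3 IP library was small, and in TPM the groups overlapped (5.59 against 5.05). The log2 fold change was 0.46 (SE 0.17), a fold of 1.38 with a 95% interval of 1.06 to 1.79. The differences within replicate numbers were uneven, at 0.77, 0.47 and 0.23 on the log2 CPM scale. Across the alternatives that kept all libraries it lay between 0.42 and 0.69, and it was 0.29 without IgG IP replicate 1 and 0.38 to 0.59 without any other single library. On the TPM scale the order of the pair turned. *PRKCA* was at 0.58 and 0.69 with 1 and 0.1 TPM added, against 0.42 and 0.55 for *PRKCB*. With 0.1 TPM added *PRKCD* was the highest tested member, at 0.76. Neither TPM fit called any member. With the replicate block (0.47) *PRKCA* was uncalled through the 1.5-fold minimum alone, since its adjusted p there was under 0.05.

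*PRKCI* did not follow the conventional pair. Its gene lies on chromosome 3 from 170222424 to 170305977 (+ strand). It gave 1408, 2252 and 1910 IgG IP counts, and 1726, 2031 and 1708 with IGF2BP3. In CPM these were 152.6, 150.9 and 154.1 against 144.9, 153.4 and 138.8, and the groups overlapped. The log2 fold change was -0.07 (SE 0.08), and the 95% interval of the fold, 0.849 to 1.07, did not reach 1.5-fold in either direction. With at least 1408 counts in every library, *PRKCI* was the best measured member.

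Because *PRKCI* and the conventional members are read from the same library, their ratio does not depend on how libraries are scaled. For every 100 *PRKCI* counts, *PRKCA* had 17.3, 26.0 and 27.3 in IgG IP libraries and 31.1, 35.4 and 35.5 in IGF2BP3 IP libraries. *PRKCB* had 3.13, 4.44 and 3.87 per 100 *PRKCI* counts in IgG IP libraries and 6.32, 8.42 and 7.67 in IGF2BP3 IP libraries. Both ratios were higher in every IGF2BP3 IP library than in any IgG IP library. *PRKCB* also had more counts per 100 of *PRKCA* in every IGF2BP3 IP library (20.3, 23.8 and 21.6) than in any IgG IP library (18.1, 17.1 and 14.2). That order is for counts. On the TPM scale the log2 fold change of *PRKCB* was below that of *PRKCA* (0.42 against 0.58 with 1 TPM added). These ratios use the same counts by which the family was chosen, so they are no added evidence for the difference. The share of other gene pairs with such an order was not computed.

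**Figure D3:**
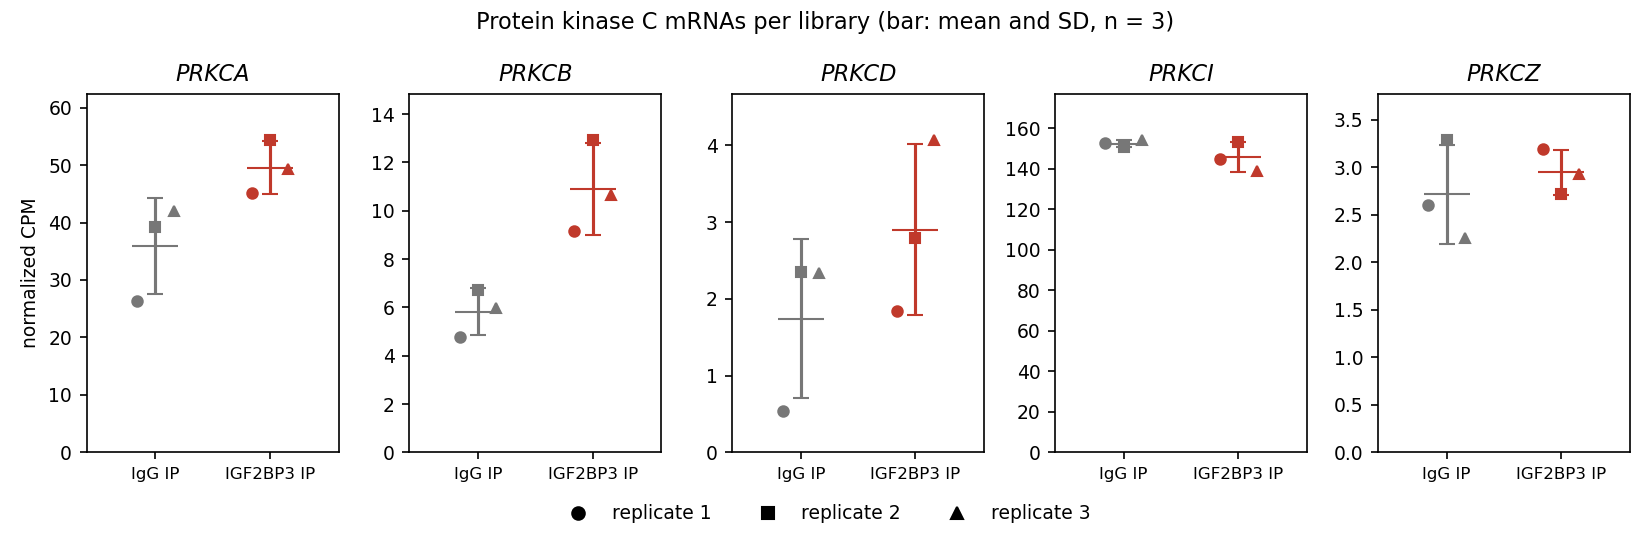
Normalized CPM (y axis, from 0, a scale for each gene) of the 5 tested members in IgG IP and IGF2BP3 IP, with 1 point per library shaped by replicate number, the mean as a bar and the SD as whiskers. *PRKCA* and *PRKCB* have no overlap between groups, and *PRKCD*, *PRKCI* and *PRKCZ* overlap.

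*PRKCD* and *PRKCZ* were too shallow for a narrow interval. *PRKCD* (chromosome 3 from 53156009 to 53192717, + strand) had 5, 35 and 29 IgG IP counts and 22, 37 and 50 IGF2BP3 IP counts. In CPM the values were 0.542, 2.35 and 2.34 against 1.85, 2.79 and 4.06, with overlap. Its log2 fold change of 0.67 (SE 0.47) had a 95% interval of -0.38 to 1.73 and ranged from 0.31 (without IgG IP replicate 1) to 0.94 (without IgG IP replicate 2) as single libraries were left out, with 0.34 without IGF2BP3 IP replicate 3. Neither no difference nor a 3-fold one lay outside the interval. The 5 counts of IgG IP replicate 1 gave the largest of the within-number log2 differences, 1.66, against 0.25 and 0.79 for replicates 2 and 3.

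*PRKCZ* (chromosome 1 from 2050411 to 2185395, + strand) had 24, 49 and 28 IgG IP counts and 38, 36 and 36 IGF2BP3 IP counts, a log2 fold change of 0.11 (SE 0.24) with a 95% interval of -0.44 to 0.65. The groups overlapped, and the sign turned with the correction for GC content (-0.09) and without IgG IP replicate 3 (-0.011). Reads at *PRKCZ* are open to mixing with genes on the opposite strand, as the use of strand in counting is not given in the sources used here. The antisense RNA *PRKCZ-AS1* within it had 0, 4 and 3 IgG IP counts and 10, 21 and 8 IGF2BP3 IP counts, and did not pass the filter. *FAAP20*, which overlaps the end of *PRKCZ* on the other strand, had 73, 91 and 90 counts against 133, 145 and 141, a log2 fold change of 0.67. For *PRKCI*, a processed pseudogene, *PRKCIP1*, had at most 3 counts in any library.

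GC content moved with the difference between the groups across all RNAs, and its part in the members' values was not tested beyond the correction. Over 10 bins of equal size from the lowest to the highest GC content, the median log2 fold change went from -0.14 to 0.20. *PRKCB*, with 46.3% GC, lies in a bin with a median of -0.03, and *PRKCA*, with 48.7%, in one with a median of 0.02. *PRKCI*, with 38.7%, lies where the median was -0.09, beside its own -0.07, and *PRKCZ*, with 60.3%, where it was 0.16, beside its own 0.11. *PRKCD*, with 55.5%, lies where it was 0.10. With the per-library GC correction *PRKCB* stayed at 0.89 and *PRKCI* moved to 0.018.

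**Figure D4:**
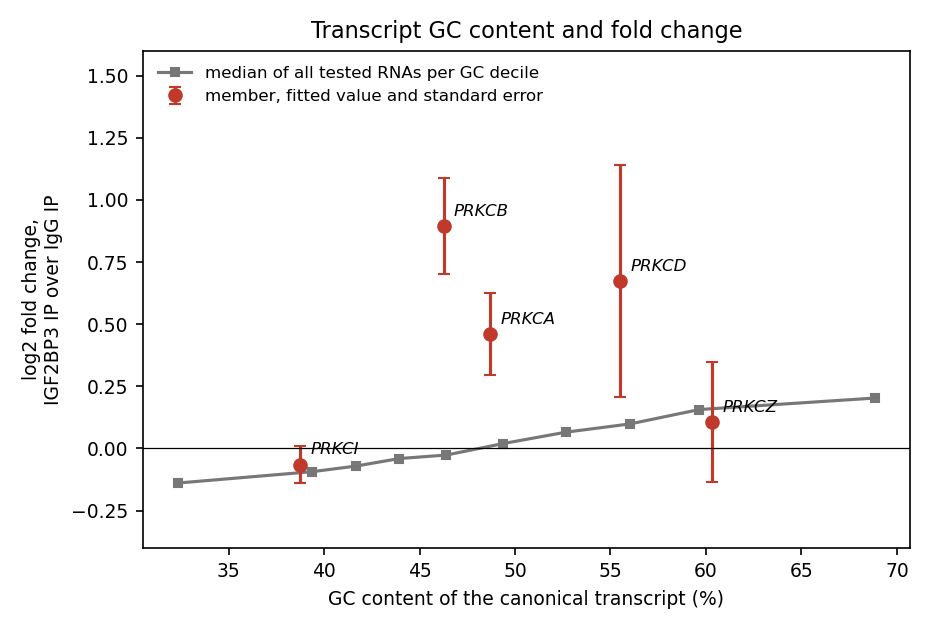
GC content of the canonical transcript in percent (x axis) against log2 fold change, IGF2BP3 IP over IgG IP (y axis), as the median of all tested RNAs in each of 10 bins by GC content (squares) and for the 5 tested members (circles with SE). *PRKCI* and *PRKCZ* lie within 1 SE of the line of medians, and *PRKCA*, *PRKCB* and *PRKCD* lie more than 1 SE above it.

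Around the family, 58 genes in 5 lists were followed, namely related kinases, phospholipase C enzymes, other diacylglycerol-binding proteins, regulators and partners, and substrates. Of these 41 were tested, and edgeR called none higher and none lower, against 1.16% and 0% of all tested RNAs. DESeq2 called 1 of them higher and 0 lower, where it called higher 2.31% of the RNAs for which it gave an adjusted p. The replicate block called 2 higher and 0 lower, beside 3.56% and 0.103% of all tested RNAs. At an unadjusted p under 0.05 there were 8 of the 41, beside 12.8% of all tested RNAs. Of the 8, 3 were higher and 0 lower by 1.5-fold or more, where 558 and 59 of all 14507 tested RNAs were so. The median log2 fold change over the 41 was 0.11, with -0.01 over all tested RNAs. In 6 of the 41 every IGF2BP3 IP library was above every IgG IP library and in 6 every one was below, where 12.0% and 8.69% of all tested RNAs were so.

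Among related kinases, 5 of 7 were tested. *PRKD1* had at most 2 counts in any library. *PRKD2*, a diacylglycerol-responsive kinase that protein kinase C phosphorylates, had 3.47, 2.35 and 2.58 CPM with IgG and 4.11, 4.46 and 4.63 CPM with IGF2BP3, with no overlap, and a log2 fold change of 0.67 (SE 0.22, edgeR adjusted p = 0.24). *PKN2* was instead lower in every IGF2BP3 IP library, at 168.6, 168.4 and 174.9 CPM against 146.2, 151.2 and 138.6 CPM, a log2 fold change of -0.23 (SE 0.07, edgeR adjusted p = 0.22). *PKN3* (0.19) and *PRKD3* (-0.05) had log2 fold changes with 95% intervals that included 0. With the GC correction *PRKD2* moved to 0.46 and *PKN2* to -0.13, and *PKN3* and *PRKD3* took the opposite sign.

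Upstream of the family, 7 of 12 phospholipase C genes were tested and 2 had an unadjusted p under 0.05, which 12.8% of all tested RNAs had. *PLCD3* had a log2 fold change of 0.78 (SE 0.25, edgeR adjusted p = 0.23) on the counts and -0.34 or -0.61 on the TPM scale, depending on the pseudocount. *PLCB1*, which G proteins activate, had -0.29 (SE 0.12, edgeR adjusted p = 0.36) on the counts and 0.42 or 0.45 in TPM, so the direction of both turned with the unit. *PLCG1*, the tested phospholipase C with the highest TPM, was at 0.14, but at 0.011 without IgG IP replicate 1 and 0.027 with the GC correction. Of 9 other diacylglycerol-binding proteins 4 were tested and 0 had an unadjusted p under 0.05 by edgeR, with *RASGRP1*, a Ras exchange factor, at 0.30 and *CHN1*, a Rac GTPase-activating protein, at 0.23. Single libraries moved both, *RASGRP1* to 0.073 without IgG IP replicate 1 and 0.49 without IgG IP replicate 2, and *CHN1* to 0.14 without IGF2BP3 IP replicate 3.

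Among regulators and partners 13 of 14 were tested. *SQSTM1*, the p62 scaffold that binds the atypical forms, had a log2 fold change of 0.36 (SE 0.12, edgeR adjusted p = 0.25). *PHLPP1*, a phosphatase of protein kinase C, had 0.46 (SE 0.21), and *RACK1*, a scaffold for activated protein kinase C and the most abundant of the list, had 0.24 (SE 0.25). *PHLPP1* was at 0.28 without IgG IP replicate 1, and *RACK1* changed sign to -0.061 without IGF2BP3 IP replicate 1. With the GC correction *SQSTM1*, *PHLPP1* and *RACK1* were at 0.20, 0.32 and 0.13.

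Among substrates 12 of 16 were tested. *ADD2*, beta-adducin, had 0.31 (SE 0.11, edgeR adjusted p = 0.29) and *PEBP1*, the Raf kinase inhibitor protein, had -0.16 (SE 0.08), or -0.095 without IgG IP replicate 1.

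**Figure D5:**
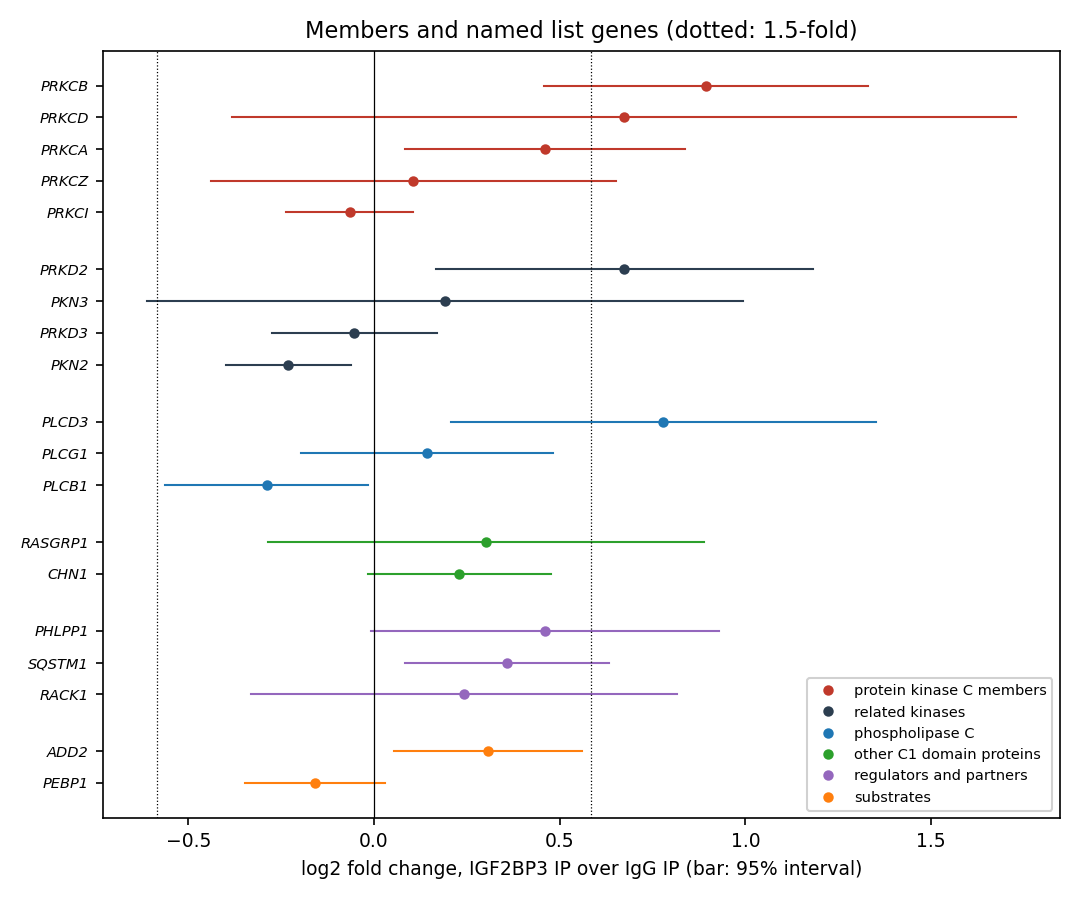
Log2 fold change, IGF2BP3 IP over IgG IP, with its 95% interval (x axis) for the 5 tested members and the 14 list genes named here that were tested, grouped and coloured by list, with dotted lines at 1.5-fold in each direction. *PRKCB* and *PLCD3* have the highest values shown, at 0.89 and 0.78, and none of the 19 passed both thresholds.

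Of all tested RNAs, those whose log2 CPM followed *PRKCB* most closely over the 6 libraries were *LINC00294* (Pearson r 0.999), *SETBP1* (0.998), *EPB41L3* (0.997), *GLB1L2* (0.995) and *ANKRD17* (0.995). They were picked as the 5 highest of all tested RNAs, and the 6 libraries share the split between IgG IP and IGF2BP3 IP, so high values, and fold changes like that of *PRKCB*, arise in part from that choice. Their log2 fold changes ran from 0.48 for *SETBP1* to 0.84 for *LINC00294*, beside 0.89 for *PRKCB*.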

How the data were processed

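RIP-seq libraries of WaGa cells, 3 IgG IP and 3 IGF2BP3 IP, were grouped by their labels. The authors aligned 150 bp paired-end reads to GRCh38 with STAR 2.7.9a and quantified transcripts with RSEM and GENCODE version 37. The deposited counts are whole-number reads per gene without normalization, and the program and use of strand behind them are not given in the sources used here. The deposited TPM and the deposited FPKM are RSEM estimates per length.

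The members, the 5 lists and the tests were chosen with earlier results of these data known. Counts were filtered with filterByExpr, scaled by TMM and tested over all genes by edgeR 4.0.16 (R 4.3.3, quasi-likelihood), with no term other than condition. The SE was had by dividing the log2 fold change by the root of the F statistic, and intervals are 95%. Normalized CPM use TMM library sizes. The scripts were tested on simulated data. Transcript features came from GENCODE version 44 canonical transcripts on GRCh38, which held 60481 of the 60655 genes, and GC content was had for 14479 of the 14507 tested. Matches were counted in the transcribed strand, with overlaps.

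Named genes were all members, all related kinases, the 2 smallest p-values and the highest mean IgG IP TPM in each other list, the 5 RNAs most correlated with *PRKCB*, and genes that overlap a member or are its pseudogene. Of 24 genes that overlap a member, those with no bearing on a member's counts are not listed. Some list genes that this rule names are counted but not reported here.

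Alternatives were DESeq2 1.42.0, RLE, upper-quartile and library-total scaling, other filters, limma 3.58.1 as voom on the counts and as trend on log2 TPM with pseudocounts of 1 and 0.1, a per-library loess on GC content (span 0.5), a replicate block, no fold change minimum, FPKM shares, and leaving out each library. Deviations from the group means correlated between libraries of a shared number (r across genes 0.57, 0.28 and 0.23). The cross pairs of replicates 2 and 3 reached 0.27 and 0.28. The check thus sets replicate 1 apart but cannot tell how replicates 2 and 3 pair. The replicate block takes the numbers to pair the samples, which no label says. With 3 libraries a group, an exact two-sided permutation test cannot go below 0.1 and was not used. Protein sequences of the members were not analysed here.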

Additional observations from a re-analysis of the deposited data

How the results depend on the processing

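Of the 5 tested members, *PRKCA* and *PRKCD* kept their direction and stayed uncalled under every alternative that gave them a value. *PRKCD* did not pass the filter of 10 counts in every library and has none there, and *PRKCA* had an adjusted p under 0.05 with the block, with the block and GC correction, and with no filter beyond 1 count, where its fold was under 1.5. *PRKCB* kept its direction in all and was called higher with DESeq2 (0.89), with no filter beyond 1 count (0.88), with the replicate block (0.91) and with the GC correction and the block together (0.90). These settings each called 1 member, and leaving out a library gave 0 to 1 members and a *PRKCB* log2 fold change of 0.75 to 1.01. *PRKCI* was at 0.034 and 0.035 on the 2 TPM scales, where the median of all tested RNAs was shifted by 0.11 and 0.13. Relative to that shift *PRKCI* kept its sign, at -0.076 and -0.0996. It took the opposite sign at 0.018 with the GC correction, with and without the block. *PRKCZ* turned to -0.088 with the GC correction, with and without the block, and ranged from -0.011 to 0.28 as libraries were left out. The replicate block changed no other call of a member.

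Of the list genes 1 was called with DESeq2, with no filter and with GC correction and block, and 2, of which 1 was *PRKD2*, with the block alone, against 0 to 1 as libraries were left out. *PRKD3* was at 0.051 and 0.054 in the TPM fits, below the shifts of 0.11 and 0.13 in the median of all tested RNAs. It turned to 0.031 with the GC correction and 0.030 with the block added, and ranged from -0.11 to 0.026 over the left-out libraries. *PKN3* turned to -0.043 with the GC correction and -0.11 with GC correction and block, and ranged from -0.17 to 0.48. *PLCD3* turned to -0.34 and -0.61, and *PLCB1* to 0.42 and 0.45, in the TPM fits. *RACK1* ranged from -0.061 to 0.53 over the left-out libraries. The cause of these turns was not tested.

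Over all tested RNAs, 169 were called higher. The count was 280 with DESeq2, 359 with no filter, 517 with the block, 82 with the GC correction, 268 with GC correction and block, and 0 in both TPM fits, and 0 to 244 as libraries were left out. It was 7 with IgG IP replicate 3 left out and 19 with replicate 2 of that group left out, and for the IGF2BP3 IP it was 0 when replicate 2 and 23 when replicate 3 was left out. The count called lower was 0, with 1 under no filter, 15 with the block, 35 with GC correction and block, and 0 for every left-out library. Depth limits *PRKCD* and *PRKCZ*, with at most 50 counts in any library, and *PRKCE*, *PRKCH* and *PRKCQ*, which could not be followed.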
